A study of Mus musculus with 9 samples.

Results

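The genes described here are 10 mouse genes of which some are known to carry variants that separate laboratory strains and substrains: Nnt, Glo1, Btbd9, Trim12a, Trim34a, Trim30a, Ifi44l, Zfp945, Tmem181a and Gm4047. They were chosen by the log2 differences of knockout progenitors from wild type (WT) on these same arrays, and some for known strain variants or for lying beside another listed gene. They are 10 of the 18193 genes with a probe set of their own on the array, and all 10 were among the 11961 genes bright enough to be tested. The choice used the differences of the knockouts from WT, so those differences are given below as a description. Tests are kept for what the choice did not use directly.

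RNA came from bone marrow progenitors of mice that were sorted as lineage-negative, CD117+, SCA-1+ and CD135+, a surface phenotype of early multipotent cells. The groups were E2A-/- mice, which lack the E protein gene E2A (Tcf3), Lyl1-/- mice, which lack a transcription factor that pairs with E proteins, and WT control mice, with 3 Affymetrix arrays each. The labels call the 3 samples of a genotype biological replicates. The sources used here do not give strain, substrain, backcross, age, sex or the allele of each knockout, so strain background and genotype cannot be told apart by design.

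Laboratory strains differ by deletions, duplications and small variants that can change how much of a transcript is made or how well an array probe binds it. Nnt encodes a proton-driven enzyme of the inner mitochondrial membrane that makes NADPH, and the C57BL/6J substrain carries a deletion of several of its exons. Glo1 encodes glyoxalase I, which clears methylglyoxal, and lies in a segment that is duplicated in some inbred strains together with neighbouring sequence near Btbd9. Trim12a, Trim30a and Trim34a belong to a cluster of Trim5-related genes whose copies vary between strains, and many genes of this family respond to interferon.

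The 9 arrays had nearly equal medians, between 77.9 and 79.3 in the array's linear intensity units, and the lowest intensity on each lay between 42.1 and 45.1, so differences of genes near that level are compressed. WT 1 and WT 3 differed by little more at bright probe sets than at dim ones, where array noise sets the spread (ratio of the spreads 1.15, against 2.15 to 4.21 in the other pairs), so they were averaged and counted as 1 sample, which leaves WT with n = 2 and each knockout with n = 3. The sort-gate genes Kit, Flt3 (CD135) and Cd34 were read above the array median on all 9 arrays, and Ly6a (SCA-1) was not analysed here. Their levels were not equal: Flt3 read 672, 742 and 1136 on Lyl1-/- 1, 2 and 3, 863 to 1217 in E2A-/- and 1052 to 1302 in WT. The Lyl1 probe set read 825 to 1222 in E2A-/-, 79.2 to 92.0 in Lyl1-/- and 1352 to 1443 in WT cells. At its brightest probe set Tcf3 read 121 to 193 in E2A-/- and 164 to 205 in WT cells. The deleted part of Tcf3 is unknown here, so this reading does not check the label. Genes of mature granulocytes and monocytes (12 measured) had a median log2 difference from WT of 0.04, 1.95 and 1.97 on E2A-/- 1, 2 and 3, and of 0.54, 0.51 and 0.01 on Lyl1-/- 1, 2 and 3. The mature erythroid list (5 measured) stood at 0.90 on E2A-/- 3, where Slc4a1, the red cell anion exchanger gene, read 736, against 115 to 182 in WT. The macrophage and dendritic list (7 measured) stood between -0.02 and 0.19 on the knockout arrays. Of this list, Csf1r read 1310, 1117 and 532 on Lyl1-/- 1, 2 and 3, 330 to 681 in E2A-/- and 290 to 383 in WT. The actin 3-prime over 5-prime ratio, a sign of RNA quality, was 10.1 on E2A-/- 2 and 10.6 on WT 2, against 2.85 to 4.23 on the other 7 arrays. Xist signal was seen on E2A-/- 2, Lyl1-/- 1 and Lyl1-/- 2 (2001 to 2362) and not on the other 6 arrays (79.7 to 103.7). Spiked-in control transcripts read 1201 on E2A-/- 1, 1719 to 3194 on the further knockout arrays and 1295 to 1388 in WT (geometric means). The part of these measures in the results below was not tested, beyond the fits with a covariate or without single arrays.

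Of the 10 genes, 8 passed the limma threshold (Benjamini-Hochberg adjusted p under 0.05 over all tested genes) in E2A-/- against WT, where 0.226% of all tested genes did, and 7 passed in Lyl1-/- against WT, where 0.192% did. On 8 of the 10 the E2A-/- arrays did not overlap WT, against 17.8% of all tested genes, and on 9 the Lyl1-/- arrays did not, against 22.1%. Since this shift is what the genes were listed for, nothing is read from these counts. Of the 8, Trim12a, Trim34a, Zfp945 and Gm4047 were higher and Nnt, Glo1, Ifi44l and Tmem181a were lower in E2A-/- cells (background 0.117% higher and 0.109% lower). The same genes apart from Gm4047 lay on the same side of WT in Lyl1-/- cells (3 higher and 4 lower, background 0.0669% and 0.125%), and the comparisons share the WT samples. Trim30a and Btbd9 did not pass in either.

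**Figure D1:**
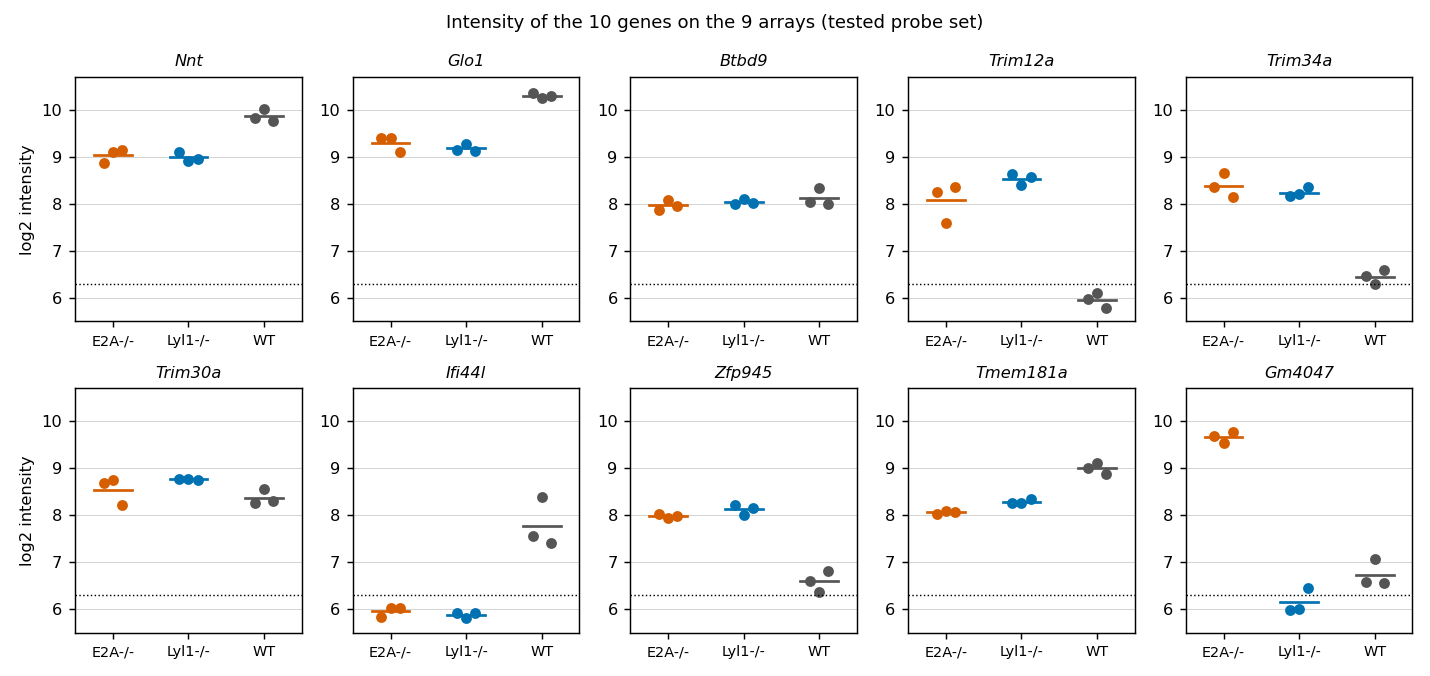
Log2 intensity (vertical axis) of the tested probe set of each of the 10 genes on the 3 E2A-/-, 3 Lyl1-/- and 3 WT arrays; points are arrays, short lines are the mean of a group's 3 arrays, and the dotted line is the mean of the array medians. In 7 panels (Nnt, Glo1, Trim12a, Trim34a, Ifi44l, Zfp945, Tmem181a) both knockouts lie on one side of WT with no overlap, Gm4047 is high on the E2A-/- arrays (745 to 873) and not on the Lyl1-/- arrays (63.1 to 87.8), and Btbd9 overlaps between all groups.

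Nnt and Glo1, both metabolic enzymes, were lower in both knockouts at each probe set that was bright enough to read. Nnt read 469, 547 and 569.9 in E2A-/- cells, 555, 480.2 and 495 in Lyl1-/- cells, and 909, 1044 and 874 in WT cells. No knockout array reached the lowest WT array, and the differences from WT on the log2 scale were -0.87 in E2A-/- and -0.92 in Lyl1-/- cells (SE 0.127 each), which is 1.83-fold and 1.90-fold lower. The name of this probe set ends in _x_at, the mark of the manufacturer for probes that may also bind other transcripts. A further Nnt probe set read 129 to 165 in E2A-/- cells, 179.8 to 191 in Lyl1-/- cells and 257 to 287 in WT cells, differences of -0.91 and -0.56 (SE 0.105 each). The third Nnt probe set stayed under the array median on all 9 arrays (63.8 to 71.5) and carries no level.

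Glo1 read 679, 682 and 548 in E2A-/- cells, 569.8, 616 and 559 in Lyl1-/- cells, and 1314, 1229 and 1259.8 in WT cells. The WT arrays were close to one another and about 2-fold above the knockouts, with log2 differences of -0.99 in E2A-/- and -1.11 in Lyl1-/- cells (SE 0.120 each). Its other 3 probe sets had differences between -0.95 and -0.52 in E2A-/- cells and between -0.91 and -0.58 in Lyl1-/- cells, and at all 4 the 6 knockout arrays lay below the WT arrays. Btbd9, the gene beside Glo1 that encodes a BTB-domain protein, did not share this shift. It read 235, 272 and 247 in E2A-/- cells, 256, 274 and 261 in Lyl1-/- cells, and 265, 324 and 256 in WT cells, with overlapping groups. The differences from WT were -0.21 and -0.14 (SE 0.120 each), and its other 2 probe sets lay between -0.10 and 0.30.

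The TRIM genes encode RING-type ubiquitin ligases, several of which act in antiviral defence. In the RefSeq gene order all 3 listed ones lie in 1 cluster on chromosome 7, with Trim5 and Trim12c between them. Trim12a read 305, 194 and 331 in E2A-/- cells, 397, 341 and 380.4 in Lyl1-/- cells, and 62.9, 69.1 and 55.6 in WT cells. The WT readings lay under the array median, and each knockout array was far above them. The log2 differences were 2.08 in E2A-/- and 2.54 in Lyl1-/- cells (SE 0.214 each), and with 90% of each array's lowest intensity subtracted first they were 3.24 and 3.78. The other Trim12a probe set read 59.3 to 69.5 on all 9 arrays, under the array median, in all 3 genotypes.

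Trim34a read 331, 404 and 283 in E2A-/- cells, 287, 295 and 328 in Lyl1-/- cells, and 88.3, 78.6 and 96.7 in WT cells. The knockouts overlapped with each other and not with WT, with log2 differences of 1.98 and 1.83 (SE 0.156 each), or 2.69 and 2.53 after that subtraction. This shift was seen at 1 probe set. The further 1-gene probe set of Trim34a read 74.8 to 111 in E2A-/- cells, 82.8 to 109.8 in Lyl1-/- cells and 99.1 to 119.9 in WT cells (differences -0.35 and -0.24), and the pair shared with Trim34b differed from WT by at most 0.18.

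Trim30a, known in mouse as a brake on Toll-like receptor signalling, gave readings that depended on the probe set. At its brightest probe set it read 410.3, 429 and 297 in E2A-/- cells, 439, 439 and 432 in Lyl1-/- cells, and 306, 379 and 314 in WT cells, so the Lyl1-/- arrays lay above WT (0.35, SE 0.165) and the E2A-/- arrays overlapped it (0.13). At the second it read 119.7 to 164 in E2A-/- cells, 132 to 178 in Lyl1-/- cells and 213 to 229.8 in WT cells, lower in both knockouts (-0.64 and -0.52, SE 0.157 each). Averaging these turns the sign of both differences, to -0.25 in E2A-/- and -0.08 in Lyl1-/- cells.

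The promoter windows of the TRIM genes and Ifi44l are shown because these genes belong to interferon-responsive families, while Trim12a and Trim34a were higher and Ifi44l lower in both knockouts. Each runs from 250 bases before to 50 bases after the annotated start, on the strand of the gene, from RefSeq on GRCm38.p6, which is a C57BL/6J sequence. They are chr7:104244207-104244506 (plus strand) for Trim34a, chr7:104315446-104315745 (minus) for Trim12a, chr7:104465144-104465443 (minus) for Trim30a and chr3:151762842-151763141 (minus) for Ifi44l. Capitals mark matches to GAAA, any 2 bases and GAAA again, on either strand (TTTC, 2 bases and TTTC as printed on the gene's strand), a letter pattern found in interferon-response elements.
Trim34a: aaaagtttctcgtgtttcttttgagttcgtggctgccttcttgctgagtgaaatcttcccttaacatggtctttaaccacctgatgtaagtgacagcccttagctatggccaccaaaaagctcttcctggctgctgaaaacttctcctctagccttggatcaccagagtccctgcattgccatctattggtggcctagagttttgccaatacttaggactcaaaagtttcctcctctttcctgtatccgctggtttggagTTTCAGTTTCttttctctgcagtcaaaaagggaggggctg
Trim12a: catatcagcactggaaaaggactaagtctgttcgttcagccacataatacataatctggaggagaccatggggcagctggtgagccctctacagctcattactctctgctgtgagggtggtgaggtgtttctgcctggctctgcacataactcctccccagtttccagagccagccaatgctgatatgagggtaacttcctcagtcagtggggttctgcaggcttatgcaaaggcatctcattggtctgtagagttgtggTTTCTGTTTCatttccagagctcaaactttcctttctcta
Trim30a: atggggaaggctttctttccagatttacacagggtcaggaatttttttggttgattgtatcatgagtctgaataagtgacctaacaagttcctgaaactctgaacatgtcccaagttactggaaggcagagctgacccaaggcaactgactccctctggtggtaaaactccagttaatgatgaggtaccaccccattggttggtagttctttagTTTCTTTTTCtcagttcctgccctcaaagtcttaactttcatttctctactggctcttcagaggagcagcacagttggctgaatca
Ifi44l: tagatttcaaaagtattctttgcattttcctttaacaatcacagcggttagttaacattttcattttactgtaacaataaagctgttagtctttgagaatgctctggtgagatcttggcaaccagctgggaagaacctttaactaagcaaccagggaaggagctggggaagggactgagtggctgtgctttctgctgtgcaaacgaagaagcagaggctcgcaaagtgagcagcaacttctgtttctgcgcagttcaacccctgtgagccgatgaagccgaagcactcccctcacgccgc
Each TRIM window shown holds 1 match. It begins 10 bases after the annotated start in Trim34a and Trim12a, and at offset -36 from it in Trim30a. A second annotated start of Trim30a, with the window chr7:104446076-104446375 (minus), also has 1 match, at offset 2. The Ifi44l window holds 0. The pattern was present in 3.44% of all 32851 promoter windows and in 10 of 19 windows of the interferon-induced genes described below. A match is a run of letters in the reference sequence and says nothing about binding, and the sequence of the mice studied was not analysed here.

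Ifi44l, an interferon-induced gene, was near the bottom of the intensity range in both knockouts. It read 56.9, 65.5 and 65.0 in E2A-/- cells, 60.3, 56.1 and 61.0 in Lyl1-/- cells, and 188, 334 and 170.3 in WT cells. WT 2 stood above the other WT arrays, and each WT array was above all 6 knockout arrays. The differences were -1.97 and -2.05 (SE 0.224 each), or -3.19 and -3.37 with the lowest intensity subtracted. The knockout values lay under the array median. A second probe set read 60.6 to 64.5 in E2A-/- cells, 54.4 to 62.4 in Lyl1-/- cells and 101 to 135 in WT cells, and the third stayed under the array median on all 9 arrays.

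Zfp945, a zinc finger gene on chromosome 17, had probe sets on opposite sides of WT. The tested one read 262, 245 and 253 in E2A-/- cells, 297, 259 and 285 in Lyl1-/- cells, and 97.4, 83.0 and 112 in WT cells (differences 1.44 and 1.59, SE 0.122 each). A second read 86.6 to 123 in E2A-/- cells, 101 to 114 in Lyl1-/- cells and 138 to 146 in WT cells (-0.44 and -0.36, SE 0.136 each). In both, the 6 knockout arrays lay apart from the 3 WT arrays, above them in the first and below them in the second. Such a split was found in 0.408% of the 5148 genes with at least 2 detected probe sets, and Zfp945 was the 1 such gene among the 8 listed genes that could show it. The listed genes were chosen for shifts from WT, which are part of such a split, so nothing is read from this count. The third probe set lay slightly above WT (0.28 and 0.11).

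Tmem181a, which encodes a transmembrane protein, read 263, 272 and 268 in E2A-/- cells, 306, 308 and 328 in Lyl1-/- cells, and 513, 552 and 474 in WT cells. The 3 genotypes did not overlap, with WT highest and E2A-/- lowest, and the differences from WT were -0.96 and -0.73 (SE 0.0931 each). A probe set that it shares with annotated pseudogenes (Tmem181b-ps and Tmem181c-ps) read 77.4 to 127 in E2A-/- cells, 96.8 to 118 in Lyl1-/- cells and 127 to 141 in WT cells.

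Gm4047, which RefSeq lists as a long noncoding RNA on chromosome 5, was the listed gene in which the knockouts parted. It read 823, 745 and 873 in E2A-/- cells, 63.1, 64.4 and 87.8 in Lyl1-/- cells, and 95.4, 135 and 94.3 in WT cells. All 3 E2A-/- arrays were more than 5 times as bright as any other array, and the Lyl1-/- arrays lay under the WT arrays and around the array median. The difference from WT was 2.85 in E2A-/- cells and -0.67 in Lyl1-/- cells (SE 0.190 each). Its second probe set read 157 to 244 in E2A-/- cells, 62.8 to 79.3 in Lyl1-/- cells and 68.1 to 71.96 in WT cells.

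**Figure D2:**
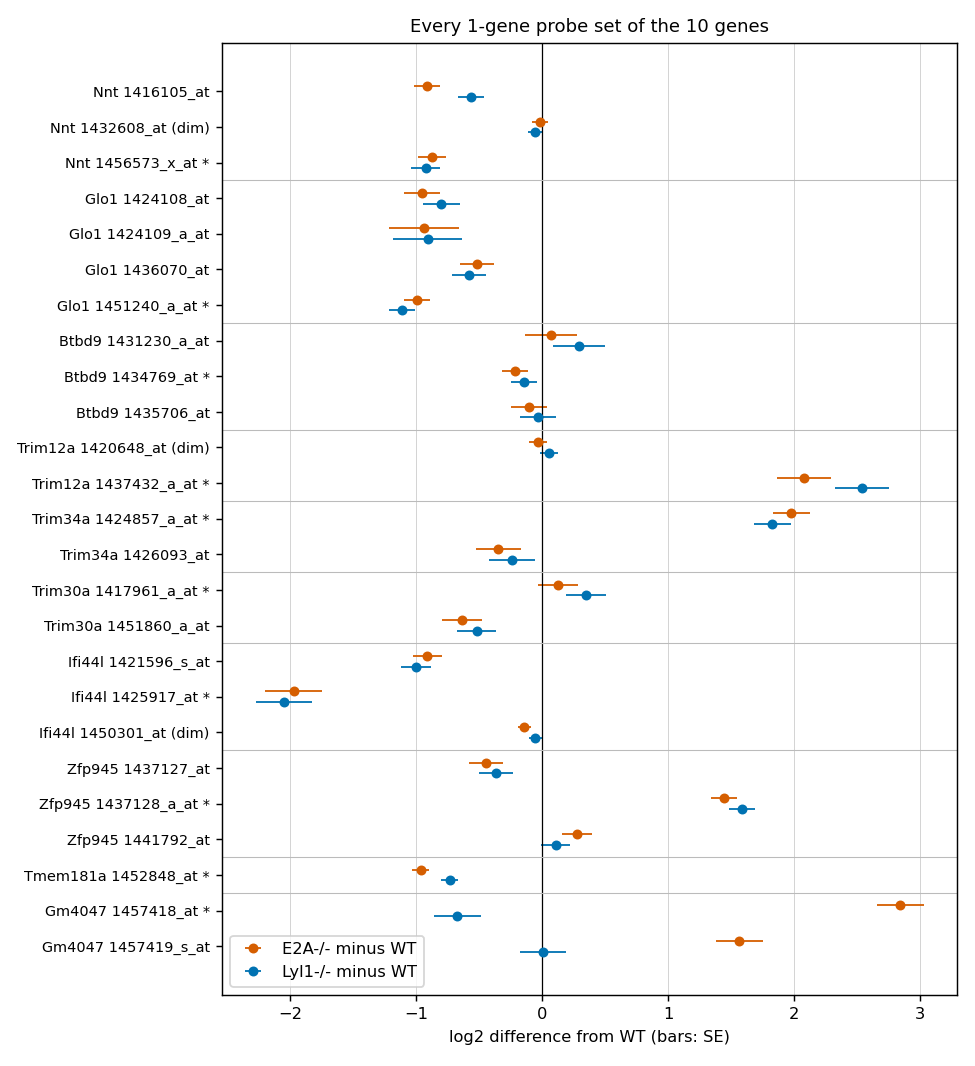
Log2 difference from WT (horizontal axis) of each of the 25 probe sets annotated to 1 of the 10 genes alone, E2A-/- above Lyl1-/- in each row, with bars for the SE of the fit; an asterisk marks the probe set tested for the gene, and "dim" one that exceeded the array median on fewer than 3 arrays. The 4 Glo1 probe sets lie together below 0, while those of Zfp945 and Trim30a lie on both sides of it.

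Of 29 probe sets annotated to the genes, 25 belonged to 1 gene and 22 of these were bright enough to read. All detected probe sets lay on 1 side of WT for Nnt, Glo1, Ifi44l and Gm4047 in E2A-/- cells, whereas Btbd9, Trim34a, Trim30a and Zfp945 had detected probe sets on both sides of 0. Which bases each probe covers was not analysed here.

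Of the 3 E2A-/- arrays, E2A-/- 1 was the one nearest to WT 1 and WT 3 in Xist, granulocyte transcripts, spike signal and actin ratio (2.85). It was not nearest in every marker. The mature erythroid list stood at -0.003 on E2A-/- 1, but its gene Car1 read 741 there, against 199 on E2A-/- 2 and 131 to 196 in WT. Nkg7, of the T and natural killer markers, read 1513 on E2A-/- 1 and 659 to 918 in WT. On E2A-/- 1 alone the log2 difference from WT was -1.04 for Nnt, -0.89 for Glo1, 2.26 for Trim12a, 1.96 for Trim34a, -2.10 for Ifi44l, 1.49 for Zfp945, -0.99 for Tmem181a and 2.86 for Gm4047. These values belong to the shift the genes were listed for and are given as a description.

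The knockouts were then compared with each other, a contrast the choice did not use directly for the genes that lay on the same side of WT in both. Across all genes 0.117% passed in this comparison (0.092% higher and 0.0251% lower in E2A-/- cells). Of the 7 genes that passed against WT in both knockouts, 0 differed between the knockouts by limma (2 at an unadjusted p under 0.05, adjusted p from 0.491 to 0.97). Taking genes that passed on the same side in both knockouts leaves out those where the knockouts part, such as Gm4047. Beside a background of 0.117%, a count of 0 among 7 genes also says little, so no agreement of the knockouts is read from it. Ifi44l is 1 of the 7, but it lay under the array median on all 6 knockout arrays, so its difference compares readings near the lower limit and says little. The E2A-/- minus Lyl1-/- difference was 0.05 for Nnt (95% interval -0.21 to 0.31), 0.12 for Glo1 (-0.12 to 0.37), 0.15 for Trim34a (-0.17 to 0.47) and 0.08 for Ifi44l (-0.38 to 0.54). It was -0.14 for Zfp945 (-0.39 to 0.11). These are values of the tested probe sets. At the further detected Nnt probe set the difference was -0.35 (SE 0.0938, limma adjusted p = 0.57 over all probe sets). There the E2A-/- arrays (129 to 165) lay below the Lyl1-/- arrays (179.8 to 191), so the 2 Nnt probe sets do not give the same reading. The largest at the tested probe sets of the 7 genes were -0.46 for Trim12a (-0.90 to -0.025) and -0.23 for Tmem181a (-0.42 to -0.039). Their unadjusted intervals leave out 0. The Trim12a difference rests in part on E2A-/- 2 (194 against 305 and 331): without that array it was -0.23, while Tmem181a stood at -0.24. Equal levels were not shown by these intervals.

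Gm4047 passed against WT in E2A-/- cells alone, so its E2A-/- minus Lyl1-/- difference of 3.52 (95% interval 3.13 to 3.91) is a description. Trim30a and Btbd9 stood at -0.22 and -0.07. At the tested probe sets 4 of the 10 genes (Trim12a, Trim30a, Tmem181a and Gm4047) did not overlap between the knockouts, against 12.2% of all tested genes. The genes were chosen by differences of the knockouts on these same arrays, so nothing is read from this count.

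**Figure D3:**
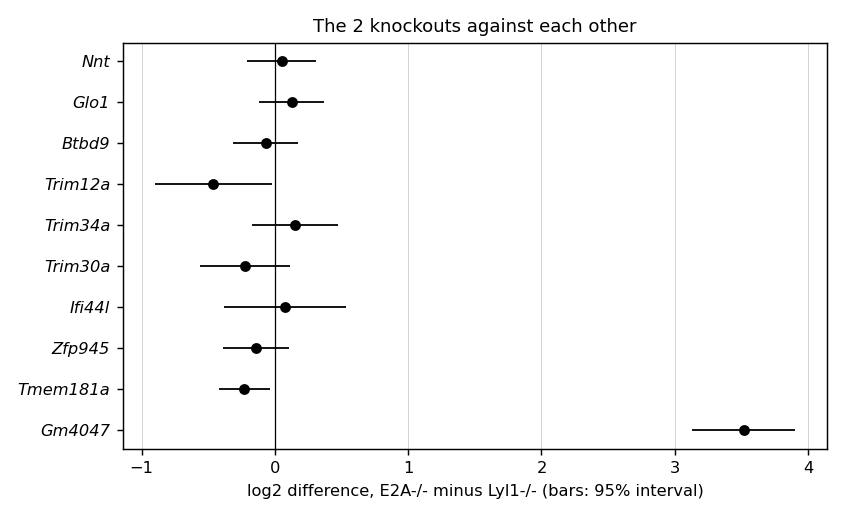
Log2 difference of E2A-/- minus Lyl1-/- cells (horizontal axis) at the tested probe set of each of the 10 genes, n = 3 arrays each, with the unadjusted 95% interval from the limma fit. Gm4047 stands at 3.52, and the other 9 genes lie between -0.46 and 0.15.

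To see whether genes near the listed ones in gene order differed too, the 5 nearest tested genes on each side of each of the 7 loci were read. They lay 5 to 9650 kb from their locus. The nearest lay 171 kb from Tmem181a, 214 kb from Ifi44l, 307 kb from Zfp945 and 1150 kb from Gm4047, so these do not read adjoining sequence. The loci lie on chromosomes 3, 5, 7, 13 and 17, with 4 of the 10 genes on chromosome 17 in 3 separate places. None is on chromosome 8 or 10, where RefSeq places Lyl1 and Tcf3. Of the 70 neighbours, 1 passed in E2A-/- against WT (1.43%, against 0.226% of all tested genes; 12 with an unadjusted limma p under 0.05). In Lyl1-/- against WT the limma count was 0 (8 at an unadjusted p under 0.05), against 0.192% of all genes. The share of all tested genes with an unadjusted p under 0.05 was not taken. Nothing is therefore read from the unadjusted counts, here, above or in the gene lists below. The neighbours' median absolute log2 difference was 0.12 in E2A-/- and 0.11 in Lyl1-/- cells, against 0.11 in each over all tested genes. By locus it was highest around Zfp945, at 0.24 in E2A-/- and 0.26 in Lyl1-/- cells, with signed medians of 0.22 and 0.19, and it was 0.17 and 0.18 at the TRIM cluster.

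The neighbour that passed was Sema3d, which encodes a secreted semaphorin and is the next tested gene after Gm4047, 1150 kb away in RefSeq. It read 145, 177 and 156 in E2A-/- cells, 69.4, 69.0 and 71.7 in Lyl1-/- cells, and 80.5, 94.0 and 78.3 in WT cells. The E2A-/- arrays lay above all others. Sema3d rose by 0.88 on the log2 scale in E2A-/- against WT (SE 0.117, limma adjusted p = 0.031) and stood 1.18 above Lyl1-/- cells (SE 0.105, limma adjusted p = 0.00708), while in Lyl1-/- against WT it stood at -0.30 (limma adjusted p = 0.506). The call against WT was lost in fits without E2A-/- 2 or 3, any 1 Lyl1-/- array or WT 2 (adjusted p from 0.0534 to 0.116), with the sex covariate (0.088), with the mean of its probe sets (0.0586), with only the 2 groups (0.196), and without E2A-/- 2 and 3 (0.396). Without WT 1 and 3 the adjusted p was 0.187. The call against Lyl1-/- cells was lost without E2A-/- 3 (0.0521), Lyl1-/- 1 (0.0615), Lyl1-/- 2 (0.0542) or E2A-/- 2 and 3 (0.229). The difference from WT stayed between 0.59 and 1.34 in all alternatives run.

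The other neighbours named by rule did not pass. Near Nnt in gene order, Emb, a cell adhesion gene 2061 kb away, stood at 1.06 in E2A-/- and 0.46 in Lyl1-/- cells, opposite to Nnt (limma adjusted p = 0.242 and 0.705). Emb read 710, 860 and 513 in Lyl1-/- cells and 644, 375 and 658 on WT 1, 2 and 3, so these groups overlapped. Over the alternatives its difference ran from 0.58 to 1.46 in E2A-/- and from 0.06 to 0.86 in Lyl1-/- cells. The gene 4833420G17Rik, 53 kb away, stood at -0.52 and -0.46. Paip1, the nearest tested gene at 19 kb, stood at 0.08 and 0.11. Beside Glo1 and Btbd9, Dnah8, a dynein gene, stood at -0.46 and -0.24 and Zfand3 at -0.24 and -0.52, on the same side of WT as Glo1. Dnah8 is counted again below, among the other genes with known variants among laboratory strains. At the TRIM cluster Trim30d stood at 0.56 and 0.42, Trim68 at -0.53 and -0.43, and between the listed genes Trim5 stood at 0.46 and 0.62 and Trim12c at -0.38 and -0.38. Around Zfp945, Zfp994 stood at 0.81 and 0.71 (limma adjusted p = 0.399 and 0.458) and Zfp943 at 0.42 and 0.22. The neighbours of Ifi44l and Tmem181a lay between -0.26 and 0.37 in both knockouts.

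**Figure D4:**
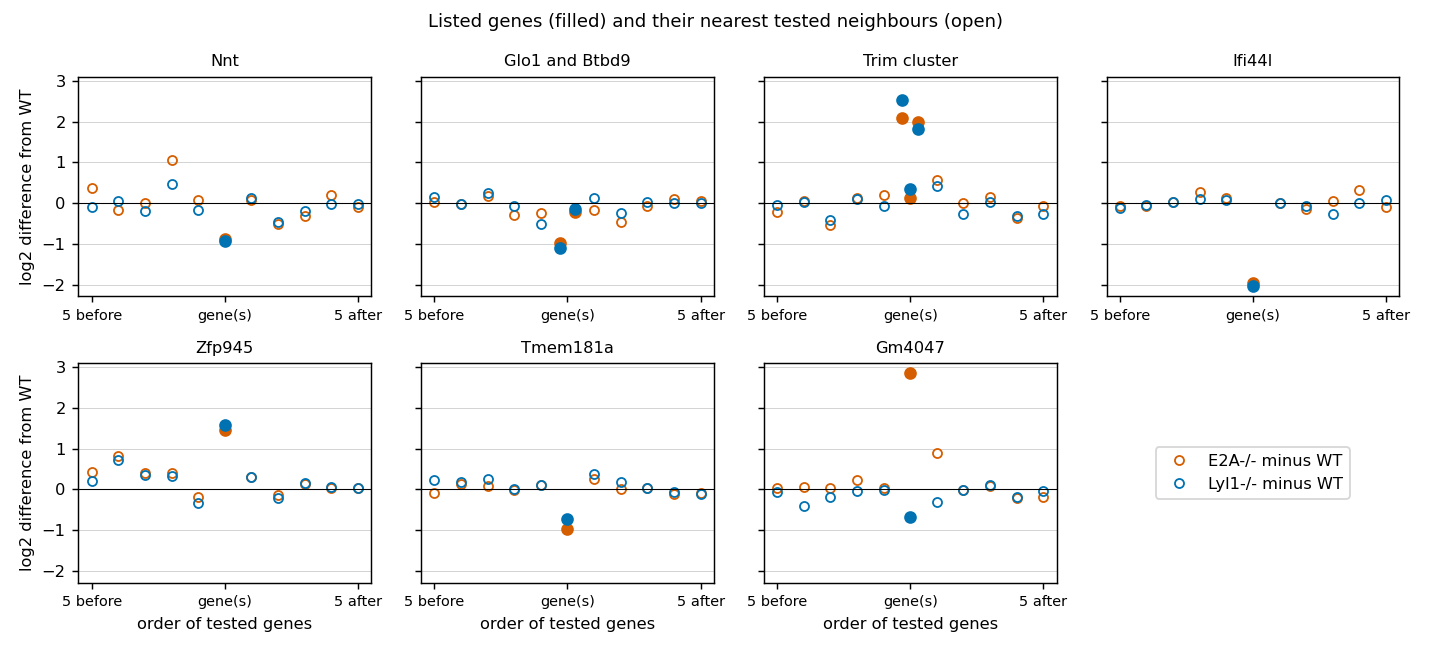
Log2 difference from WT (vertical axis) of the listed genes (filled) and of the 5 nearest tested genes before and after each locus in RefSeq order (open), for E2A-/- and Lyl1-/- cells; Trim5 and Trim12c, which lie between listed genes, are not drawn. In each of the 7 panels a listed gene lies farther from 0 than its neighbours in at least 1 knockout, and the open E2A-/- point at 0.88 beside Gm4047 is Sema3d.

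Genes of related pathways are given by their counts and medians. Methylglyoxal and glutathione genes (10 tested) had 0 past the threshold in either knockout by limma (0 with an unadjusted p under 0.05), with medians of -0.01 in both, beside -0.01 and 0.00 over all tested genes. The one nearest to passing, Ager, the receptor of glycated proteins, stood at -0.26 and -0.25. Mitochondrial NADPH and peroxide genes (13 tested) were positive in 11 in E2A-/- and 10 in Lyl1-/- cells, with medians of 0.12 and 0.17. By limma 0 passed the threshold (3 and 1 with an unadjusted p under 0.05, all higher). Over the alternatives the medians ran from 0.09 to 0.22 and from 0.07 to 0.23. The share of all tested genes that were positive was not taken. Idh2 read 380 on WT 2, where the actin ratio was 10.6, against 683 and 671 on WT 1 and 3. Prdx3 read 124 on WT 2 against 223 and 213, while Me2, Nadk2, Mthfd2 and Sod2 read highest on WT 2 among the WT arrays. Glutamate dehydrogenase Glud1 stood at 0.46 and 0.37 and the malic enzyme gene Me2 at 0.38 and 0.27.

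Further TRIM genes (12 tested) had 6 positive and 6 negative in E2A-/- cells and 5 positive and 7 negative in Lyl1-/- cells, with 0 past the threshold by limma (5 and 4 with an unadjusted p under 0.05). Interferon-induced genes (21 tested) were negative in 16 in E2A-/- cells (median -0.20) and in 13 in Lyl1-/- cells (median -0.10). In E2A-/- cells 0 met the limma threshold (at an unadjusted p under 0.05, 1 was higher and 8 lower), with Xaf1, the gene of smallest p, at 0.54 and the antiviral synthetase genes Oasl2, Oas1a and Oas2 at -0.65, -0.66 and -0.61. In Lyl1-/- cells 1 passed, again Xaf1, an apoptosis-related gene, which rose by 0.84 (SE 0.0882, limma adjusted p = 0.0102). The sign of Xaf1 turned with the mean of its probe sets, to -1.19 in E2A-/- and -1.02 in Lyl1-/- cells, and its call in Lyl1-/- cells was lost without Lyl1-/- 1, Lyl1-/- 2, WT 2 or WT 1 and 3 and with the sex covariate (adjusted p from 0.0589 to 0.127).

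Other genes with known variants among laboratory strains (20 tested of 30 listed) had 0 past the threshold in either knockout by limma (at an unadjusted p under 0.05, 1 was higher and 4 lower in E2A-/- cells, and 1 higher and 3 lower in Lyl1-/- cells). Their median was -0.10 in E2A-/- and -0.11 in Lyl1-/- cells. Wdfy1, which encodes a FYVE-domain adaptor, read 123, 117 and 110.1 in E2A-/- cells, 128, 137 and 209 in Lyl1-/- cells, and 265, 262 and 243 in WT cells. All 6 knockout arrays were below WT, by -1.14 (SE 0.193, limma adjusted p = 0.0884) and -0.74 (limma adjusted p = 0.276). Naip5, an innate immune sensor of bacterial flagellin, read 134, 126 and 109 in E2A-/- cells, 115, 116 and 107 in Lyl1-/- cells, and 181, 207 and 173 in WT cells. It too was below WT on all 6 arrays, by -0.65 and -0.77 (SE 0.121 each, limma adjusted p = 0.118 and 0.076). Thy1 went the other way, above WT on all 6 knockout arrays. It read 112 to 127 in E2A-/- cells, 99.0 to 121 in Lyl1-/- cells and 87.6 to 97.6 in WT cells. Its differences were 0.38 and 0.28 (limma adjusted p = 0.404 and 0.567). Of all tested genes, 17.8% did not overlap WT in E2A-/- and 22.1% in Lyl1-/- cells. Wdfy1 passed in E2A-/- cells without Lyl1-/- 3 (adjusted p = 0.00727), and its difference ran from -1.51 to -0.29 over the alternatives. With the lowest intensity subtracted Wdfy1 passed in E2A-/- (-1.51, adjusted p = 0.0451) and Naip5 in Lyl1-/- cells (-1.06, adjusted p = 0.0474).

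Genes whose levels over the 9 arrays were most like a listed gene's were found by the root mean square distance of gene-centred log2 values, in log2 units. Nearest to Nnt were Zscan29 (0.0758), Gprc5b (0.096) and Hmga2 (0.098), and nearest to Glo1 were Hmga2 (0.167), Wls (0.171) and Ndn (0.182). Hmga2, a chromatin protein of fetal and early progenitor cells, read 90.9 to 103.5 in E2A-/- cells, 91.7 to 100.5 in Lyl1-/- cells and 165 to 180.4 in WT cells. Nearest to Ifi44l were BC018473 (0.264), Ptp4a2 (0.324) and Ndn (0.379). For Trim12a the first were the listed genes Trim34a (0.487) and Zfp945 (0.505), then C1qtnf12 (0.562). Gm4047 had no close match: Sdc1, Car1 and Stx3 lay 0.90 to 0.98 away. Sdc1, a heparan sulfate proteoglycan gene, read 399.9 to 412 in E2A-/- cells, 93.1 to 156 in Lyl1-/- cells and 194 to 247 in WT cells.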

How the data were processed

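Intensities of 45101 probe sets on 9 arrays were used as deposited by the authors, 1 linear intensity per probe set and array; RMA and oligo are named, without versions, per the submitters' processing notes. The arrays share nearly 1 distribution, and the lowest intensity on each lay between 42.1 and 45.1, which compresses differences of dim genes. Log2 was taken without a pseudocount. After 64 controls were left out, 34945 probe sets had 1 gene in GEO's annotation of the platform, 932 several and 9160 none; 34741 matched the RefSeq table (GRCm38.p6) by Entrez identifier, and it served for names, chromosomes and gene order. Each gene was read at its probe set of highest mean, and was tested where 3 or more arrays read it above their median. The 3 genotypes were fitted in 8 samples (5 residual degrees of freedom) with limma 3.58.1 in R 4.3.3, Benjamini-Hochberg adjusted over the 11961 genes, threshold 0.05. Single probe sets were fitted over the 45037 that are not controls, a step added after seeing the data, as were the values of single arrays. The fit was tested on simulated data.

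The members, lists, neighbours (5 per side, and the 2 with the largest difference per locus named), promoters and alternatives were chosen with earlier results of these data known. In each list, genes with the smallest p were named, and 3 nearest profiles for 5 members. Alternatives changed 1 choice at a time, except that the replicate block was fitted on 9 separate arrays: 9 separate arrays, that block, mean of probe sets, normalization, subtraction, filter, a sex covariate (Xist intensity above 500) or the log2 ratio of actin probe sets as a covariate, an intensity trend, and arrays left out.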

Additional observations from a re-analysis of the deposited data

How the results depend on the processing

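Arrays carry no depth, and their number limits the precision; WT rests on 2 samples. The listed genes kept their direction in the 3 comparisons under all alternatives run, except as follows. With probe sets averaged per gene Trim30a turned to -0.25 in E2A-/- and -0.085 in Lyl1-/- against WT, Btbd9 to 0.042 in Lyl1-/- against WT, Nnt to -0.087 in E2A-/- against Lyl1-/-, and the interferon-induced Xaf1, which is not among the 10, to -1.02 in Lyl1-/- against WT. Leaving out WT 1 and 3 turned Trim30a to -0.019 in E2A-/- against WT, and leaving out WT 2 turned Btbd9 to 0.017 in Lyl1-/- against WT (-0.17 to 0.017 with 1 array left out). In E2A-/- against Lyl1-/-, Nnt turned to -0.0067 without E2A-/- 3 (-0.0067 to 0.13 with 1 array left out) and -0.12 without E2A-/- 2 and 3, and Ifi44l to -0.066 with the actin covariate and -0.056 without E2A-/- 2 and 3. Of these only Xaf1 had passed the threshold. Of 10 genes 8 passed in E2A-/- against WT, 5 with the mean of probe sets or without WT 1 and 3, 3 with only the 2 groups or without E2A-/- 2 and 3, and 4 to 8 with 1 array left out (4 without WT 2, 5 without Lyl1-/- 1 or 2). In Lyl1-/- against WT 7 passed, 4 with the mean of probe sets, only the 2 groups, the actin covariate, without WT 1 and 3 or without E2A-/- 2 and 3, 3 with the sex covariate, and 3 to 7 with 1 array left out (3 without WT 2, Lyl1-/- 1 or Lyl1-/- 2). In E2A-/- against Lyl1-/- 1 passed in all alternatives run. Of the neighbours 1 passed in E2A-/- against WT, 2 with 9 separate arrays, the lowest intensity subtracted or the trend, 0 with the mean of probe sets, only the 2 groups, the sex covariate, without WT 1 and 3 or without E2A-/- 2 and 3, and 0 to 1 with 1 array left out. Deviations of same-numbered arrays from their group means had r from -0.14 to 0.24, and those of other pairs from -0.24 to 0.197. These weak correlations do not settle whether the replicate numbers pair samples. With a replicate block on 9 arrays 8, 7 and 1 of the 10 genes passed, as on 9 separate arrays without it. Counts over all genes were 27, 23 and 14 in the order E2A-/- against WT, Lyl1-/- against WT and E2A-/- against Lyl1-/-, against 97, 93 and 23 with 9 arrays, 60, 55 and 13 with the block on those 9 arrays, 10, 15 and 11 with only the 2 groups, 15, 7 and 10 with the sex covariate, 21, 12 and 9 with the actin covariate, 43, 42 and 21 with the trend, 13, 14 and 11 without WT 1 and 3, and 6, 15 and 4 without E2A-/- 2 and 3. With 1 array left out they ran from 8 to 36, 7 to 34 and 3 to 21. Of 39 further named genes, the sign turned under at least 1 of 23 alternatives in 4, 4 and 12, and a call changed in 19, 13 and 5.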
